A study of Homo sapiens with 2 samples.

Results

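The proteasome genes of HCC15 cells are described here on 2 expression arrays, 1 of cells given an siRNA against CTNNB1 and 1 of cells given a control siRNA. CTNNB1 encodes beta-catenin, the transcriptional effector of Wnt signalling. HCC15 is an established human lung cancer cell line labelled squamous, and the title of the series counts it among CTNNB1-mutated cancers. The medium was RPMI with 5% serum for both cultures, and cells were taken 48 h after siRNA delivery. What the control siRNA targets is not stated, and that sample has Tax in its title. Members were all probe sets whose only annotated gene symbol begins with PSMA to PSMG followed by a digit. The rule took 97 of 54675 probe sets and 50 gene symbols. Of these symbols, 42 (81 probe sets) are proteasome subunits, regulators or assembly factors. The other 8 (16 probe sets) are antisense or divergent transcripts and 2 proteins named for a proteasome partner, and they are given apart.

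The proteasome is the barrel-shaped protease that degrades ubiquitin-tagged proteins. Its core particle stacks rings of alpha subunits, which form the gate, around rings of beta subunits, of which PSMB5, PSMB6 and PSMB7 carry the active sites. In cells exposed to interferon the subunits PSMB8, PSMB9 and PSMB10 take the places of these 3 and shift cleavage toward peptides for MHC class I. A regulatory particle of ATPases (PSMC) and non-ATPase subunits (PSMD) binds, unfolds and feeds in substrates. Beta-catenin is itself a substrate of this particle once the destruction complex has marked it for ubiquitination.

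As the targeting check, the CTNNB1 probe set with most signal (201533_at) read 339 with CTNNB1 siRNA and 1224 with control siRNA, a log2 ratio of -1.85. Of the other CTNNB1 probe sets, 1554411_at read 45.8 with CTNNB1 siRNA and 89.8 with control siRNA, while 223679_at read 118 with CTNNB1 siRNA and 129.7 with control siRNA. Each group was 1 array, so there is no replicate check and no p-value. The only error these arrays give is the disagreement between probe sets of 1 gene, a pooled SD of 0.42 on the log2 ratio over all genes and 0.29 over bright probe sets (those whose mean signal reached 209, the upper quartile). Over the 19 proteasome genes with 2 or more usable probe sets this SD was 0.43, and 0.28 over the bright ones among them. Epithelial markers all passed the signal filter (6 of 6, KRT8, KRT18 and EPCAM among them). Of 8 squamous markers 6 had a probe set under a single symbol, and TP63 and KRT6A had none and were not read. Only SOX2 and PERP passed the signal filter, and KRT5 and KRT14 did not. SOX2 passed it narrowly, with 41.6 with CTNNB1 siRNA and 60.1 with control siRNA. Of 3 markers each, 2 lung adenocarcinoma, 1 endothelial and 2 fibroblast genes passed it. In bulk RNA, fewer cells of a kind and less RNA per cell cannot be told apart.

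Proteasome transcripts as a set differed little between the 2 arrays. A probe set was used when its 2 signals averaged 49.1 or more, which is the median signal, and a gene was represented by its brightest such probe set. That left 71 probe sets and 41 of the 42 proteasome genes, among 12531 genes in all. No proteasome gene was at least 2-fold higher or lower with CTNNB1 siRNA, against 2.29% higher and 2.38% lower among all genes. At 1.5-fold, 5 of the 41 were higher (PSMB8, PSMD3, PSMC4, PSMD12 and PSMF1) and 0 were lower, against 11.2% higher and 7.61% lower among all genes.

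The 41 log2 ratios of CTNNB1 siRNA over control siRNA ran from -0.17 to 0.79, with a median of 0.27 and an SD of 0.22. Of these, 37 lay above 0. The median of all 12531 genes was 0.15, and 64% of them lay above 0. That general shift depends on signal. It was -0.23 in the dimmest decile of genes and 0.27 in the brightest decile, to which 27 of the 41 belong. The 27 proteasome genes of that decile had a median of 0.27 as well, and 0 of them passed 1.5-fold, beside 6.07% of the decile's genes higher and 0.399% lower. Set against the median of its own signal decile, each gene could lie on either side, and 24 proteasome genes lay above and 17 below. After a lowess correction of the ratio on signal the median of the 41 was 0.02, with 25 above 0, beside -0.02 for all genes.

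**Figure D1:**
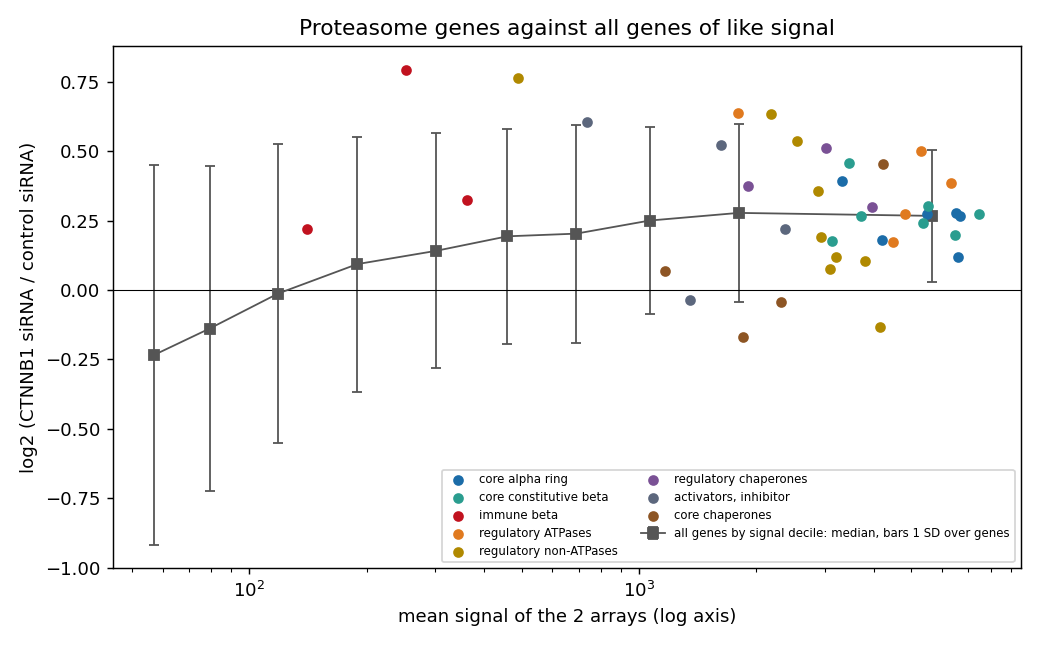
Log2 ratio of CTNNB1 siRNA over control siRNA (vertical axis) against the mean signal of the 2 arrays (horizontal log axis) for the 41 proteasome genes, coloured by part of the particle. Grey squares are the medians of all genes by signal decile with bars of 1 SD over genes, from -0.23 in the dimmest to 0.27 in the brightest decile, where 27 proteasome genes lie around that median.

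Promoter sequences are shown for the 4 genes past 1.5-fold with a match to a motif marked here and for PSMG4, the gene with the lowest ratio. PSMF1, also past 1.5-fold, held none of the marked motifs in its windows. They come from RefSeq (GRCh38.p14), each 300 bases from 250 before an annotated start, and 35 of the 41 measured proteasome genes had at least 1 such window. PSMB1, PSMB6, PSMB7, PSMA7, PSMD4 and PSMG3 had none. The first marked motif was TGACNNNGC, the core of the antioxidant response element that NFE2L1 and NFE2L2 bind. Also marked were TTCNNNGAA, the palindromic core of the interferon gamma-activated site, and the interferon response motif. The latter is GAAA and GAAA with any 2 bases between, which interferon regulatory factors bind. Both strands were read, and capitals mark the matches to these motifs. CCAAT and GGGCGG were searched as well and are not marked. TTCNNNGAA is its own reverse complement, so each match counts on both strands.
PSMB8, chr6:32843998-32844297, minus strand: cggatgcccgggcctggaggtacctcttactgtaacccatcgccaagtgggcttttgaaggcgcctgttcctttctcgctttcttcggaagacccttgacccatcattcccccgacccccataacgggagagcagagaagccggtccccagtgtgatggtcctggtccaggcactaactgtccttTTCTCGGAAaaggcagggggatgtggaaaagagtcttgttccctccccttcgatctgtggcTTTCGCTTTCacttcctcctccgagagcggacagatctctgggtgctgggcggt
PSMD3, chr17:39980557-39980856, plus strand: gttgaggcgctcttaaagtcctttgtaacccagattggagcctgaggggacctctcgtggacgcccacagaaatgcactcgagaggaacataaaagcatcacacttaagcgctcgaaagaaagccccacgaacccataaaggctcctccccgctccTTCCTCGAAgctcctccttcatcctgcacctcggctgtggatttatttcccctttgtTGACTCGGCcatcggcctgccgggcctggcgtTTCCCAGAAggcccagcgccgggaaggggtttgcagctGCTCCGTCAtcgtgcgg
PSMC4, chr19:39970915-39971214, plus strand: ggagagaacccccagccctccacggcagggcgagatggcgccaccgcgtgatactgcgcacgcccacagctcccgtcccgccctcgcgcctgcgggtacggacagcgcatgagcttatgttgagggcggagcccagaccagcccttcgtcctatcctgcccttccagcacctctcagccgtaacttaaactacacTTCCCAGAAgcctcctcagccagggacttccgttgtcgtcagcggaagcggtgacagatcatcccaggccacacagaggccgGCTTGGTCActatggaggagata
PSMD12, chr17:67366528-67366827, minus strand: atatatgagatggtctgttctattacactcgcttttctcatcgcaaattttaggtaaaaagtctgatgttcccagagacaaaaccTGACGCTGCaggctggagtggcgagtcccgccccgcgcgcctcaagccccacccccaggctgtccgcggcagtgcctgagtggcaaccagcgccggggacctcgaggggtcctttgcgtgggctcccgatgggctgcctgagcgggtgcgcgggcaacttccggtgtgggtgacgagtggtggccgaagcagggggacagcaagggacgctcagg
PSMG4, chr6:3258697-3258996, plus strand: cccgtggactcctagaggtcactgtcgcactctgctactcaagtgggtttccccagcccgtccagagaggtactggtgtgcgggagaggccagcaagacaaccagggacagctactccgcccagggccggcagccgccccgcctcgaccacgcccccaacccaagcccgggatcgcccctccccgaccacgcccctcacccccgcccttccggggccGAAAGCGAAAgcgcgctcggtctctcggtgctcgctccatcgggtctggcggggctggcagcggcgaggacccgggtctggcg

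The TGACNNNGC motif was in the windows of 13 of the 35 proteasome genes (37.1%), beside 16.1% of all 27305 genes in the table and 19.6% of the 10213 measured genes with a window. PSMD3, PSMC4 and PSMD12 hold it. The median log2 ratio was 0.28 for the 13 with it and 0.27 for the 22 without it. TTCNNNGAA was in 7 of 35 (20%, beside 9.38% of all and 8.46% of measured genes), namely PSMA2, PSMB5, PSMB8, PSMC4, PSMD2, PSMD3 and PSME3. Those 7 had a median log2 ratio of 0.52, against 0.26 for the other 28, while over all measured genes the medians with and without it were 0.15 and 0.16. The interferon response motif was in 6 of 35 (17.1%, beside 4.38% of all and 3.92% of measured genes), namely PSMA4, PSMB4, PSMB8, PSMB10, PSME1 and PSMG4, with a median of 0.26 against 0.27 without it. The longer TGACTCAGC, a case of TGACNNNGC, was in 0 of 35 (0.689% of all and 0.676% of measured genes) and CCAAT in 17 (48.6%, beside 39.7% of all and 42.8% of measured genes). GGGCGG was in 23 (65.7%), a larger share than the 48.3% of all genes and a smaller one than the 74.4% of measured genes. The window of PSMB8 shown is 1 of 2 in the table and lies at a start inside the gene; the one at the gene's outermost start held none of the 3 motifs. The PSMG4 window also lies at a start inside the annotated gene. For PSMB5 and PSMD2 too, TTCNNNGAA matched only in a window at a start inside the gene. A gene counted as holding a motif when any of its windows did, so genes with several windows had more chances of a match. A match is a stretch of letters and not a measured binding site.

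As represented by the brightest probe sets, the constitutive core varied little. The 13 constitutive core genes measured had log2 ratios from 0.12 to 0.46, an SD of 0.09, and none passed 1.5-fold (the share of all genes at least 1.5-fold higher was 11.2%). With the median over probe sets the SD was 0.25 and the range -0.25 (PSMA5) to 0.84 (PSMB2), so that PSMB2 passed 1.5-fold. Among the alpha subunits the median was 0.27 over 6 genes. PSMA1 read 6855 with CTNNB1 siRNA and 6306 with control siRNA, PSMA2 read 7282 with CTNNB1 siRNA and 6056 with control siRNA, and PSMA4 read 7119 with CTNNB1 siRNA and 5877 with control siRNA. PSMA3 read 5996 with CTNNB1 siRNA and 4956 with control siRNA, PSMA5 read 4468 with CTNNB1 siRNA and 3945 with control siRNA and PSMA7 3779 with CTNNB1 siRNA and 2880.5 with control siRNA. Each of the 6 alpha genes was higher on the CTNNB1 siRNA array, by 1.09-fold for PSMA1 up to 1.31-fold for PSMA7. After the lowess correction they ran from -0.13 to 0.12, on both sides of 0. PSMA8, the testis-specific alpha subunit, stayed under the signal filter with 28.7 with CTNNB1 siRNA and 24.4 with control siRNA.

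The 7 constitutive beta subunits had a median log2 ratio of 0.27. Of the catalytic ones, PSMB5, the chymotrypsin-like subunit that bortezomib binds, read 4069 with CTNNB1 siRNA and 3381 with control siRNA. PSMB6, the caspase-like subunit, read 4009 with CTNNB1 siRNA and 2919.6 with control siRNA, the highest ratio of the core at 0.46. PSMB7, the trypsin-like subunit, read 6918 with CTNNB1 siRNA and 6028 with control siRNA. These differences were 1.20-fold, 1.37-fold and 1.15-fold, under the 1.5-fold rule. The subunits without an active site were alike. PSMB1 read 8176 with CTNNB1 siRNA and 6765 with control siRNA, PSMB2 6086 with CTNNB1 siRNA and 4938 with control siRNA, PSMB3 3325 with CTNNB1 siRNA and 2943 with control siRNA and PSMB4 5796 with CTNNB1 siRNA and 4904 with control siRNA. Their log2 ratios lay between 0.18 and 0.30, beside a probe set SD of 0.29 over bright probe sets.

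**Figure D2:**
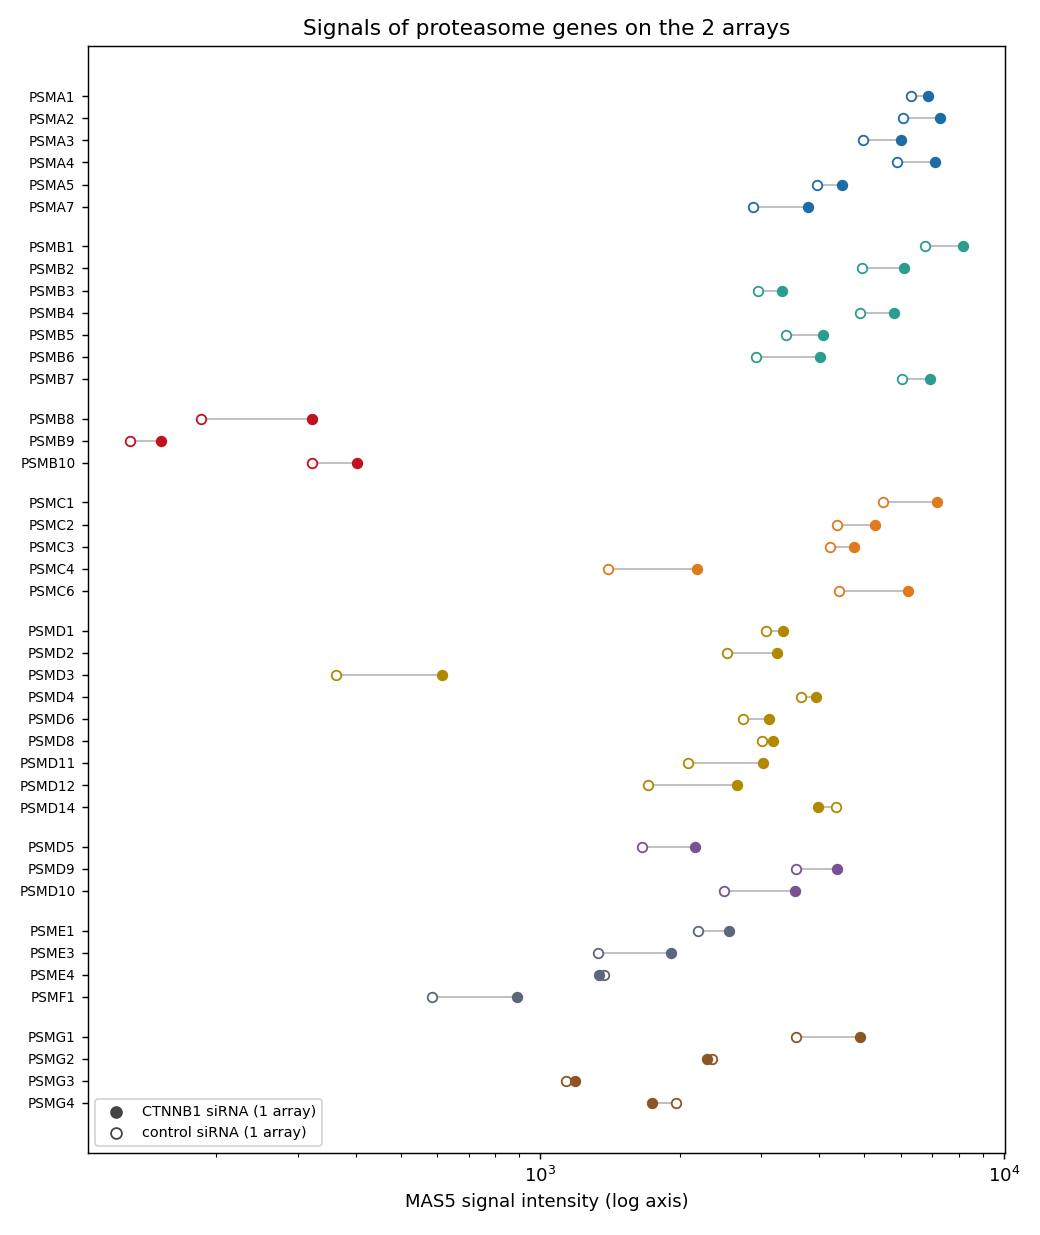
Signal of the representing probe set of each of the 41 proteasome genes (horizontal log axis), filled for CTNNB1 siRNA and open for control siRNA, 1 array each. Only PSMD14, PSME4, PSMG2 and PSMG4 have the filled point to the left, and positions of different genes are not comparable because each probe set has its own response.

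The immune subunits were split. PSMB8, which replaces PSMB5, had a signal of 321 with CTNNB1 siRNA and 185 with control siRNA. It was 1.73-fold higher with CTNNB1 siRNA, the highest ratio of the 41 genes. PSMB9, which replaces PSMB6, read 152 with CTNNB1 siRNA and 130.2 with control siRNA, and PSMB10, which replaces PSMB7, read 403 with CTNNB1 siRNA and 322.5 with control siRNA. Those 2 stayed at 1.17-fold and 1.25-fold, under the 1.5-fold rule. The log2 ratio of PSMB8 exceeded that of PSMB5 by 0.53 (0.48 to 0.65 over the alternative settings). Scaling of a whole array cancels in this difference. Only quantile normalization, lowess and an added offset moved it. For a difference of 2 ratios the probe set SD is 0.60 over all genes and 0.41 over bright probe sets, so 0.53 lay between them, and PSMB8 was the highest of the 41 genes. PSMB10 exceeded PSMB7 by 0.12, and PSMB9 lay below PSMB6 by 0.24 (a difference of -0.24, and -0.04 after lowess), both smaller than either SD. Each immune subunit had 1 usable probe set, so no second one bears on PSMB8.

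The genes around them in the antigen presentation pathway had smaller ratios than PSMB8. Of 12 such genes measured, 0 passed 1.5-fold either way in the brightest probe set, beside 11.2% of all genes higher and 7.61% lower. Their median log2 ratio was 0.15, equal to that of all genes. Some dimmer usable probe sets did pass it, at 0.63 for HLA-B (208729_x_at), 0.62 for TAPBP (1555565_s_at) and -0.85 for HLA-F (221978_at). Another HLA-B probe set (211911_x_at) lay at 0.58, beside 0.14 in the brightest. The peptide transporter gene TAP1, which lies beside PSMB9 in the MHC region, read 575 with CTNNB1 siRNA and 494 with control siRNA. Its partner TAP2 read 1063 with CTNNB1 siRNA and 794 with control siRNA in its brightest probe set and 25.3 with CTNNB1 siRNA and 115.5 with control siRNA in a dim one (204769_s_at), so its probe sets disagree in sign. The regulators were near 0, with log2 ratios of -0.19 for NLRC5, the transactivator of class I genes (63.6 with CTNNB1 siRNA, 72.5 with control siRNA), and -0.14 for IRF1, an interferon-induced factor (219 with CTNNB1 siRNA, 241 with control siRNA). Markers of leukocytes, cells that express immune subunits constitutively, were dim. Of 5 leukocyte markers 3 had a probe set. PTPRC, the defining one, read 3 with CTNNB1 siRNA and 25.9 with control siRNA, CD3E read 21.8 with CTNNB1 siRNA and 41.3 with control siRNA, and CD14 alone passed the filter (80.3 with CTNNB1 siRNA, 67.1 with control siRNA), and the summed signal of the 3 was 105 with CTNNB1 siRNA and 134 with control siRNA. The part of such cells in the PSMB8 value was not tested.

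The regulatory particle spread more widely than the core in the brightest probe sets, though not with the median over probe sets. Its 14 measured ATPase and non-ATPase genes had log2 ratios from -0.13 to 0.77, an SD of 0.26 beside 0.09 in the core, with a median of 0.31. With the median over probe sets the SDs were 0.23 for the regulatory particle and 0.25 for the core. The core genes all lay in the brightest decile of signal, where the SD over all genes was 0.24. PSMC4 and PSMD12 lay in decile 9 (SD 0.32) and PSMD3 in decile 6 (SD 0.39), counted from dim to bright. The difference in spread was not tested. Among the ATPases, which form the ring that unfolds substrates, the median was 0.38 over 5 genes. PSMC4 had a signal of 2181 with CTNNB1 siRNA and 1401 with control siRNA and was 1.56-fold higher. PSMC6 read 6221 with CTNNB1 siRNA and 4399.8 with control siRNA, 1.41-fold higher and under the rule. PSMC1 read 7173 with CTNNB1 siRNA and 5497 with control siRNA, PSMC2 5268 with CTNNB1 siRNA and 4358 with control siRNA and PSMC3 4757 with CTNNB1 siRNA and 4216 with control siRNA, with log2 ratios from 0.17 to 0.38. PSMC4 lay 1.13 SD above the median of its signal decile, and after the lowess correction its log2 ratio was 0.36, no longer past 1.5-fold.

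Among the 9 non-ATPase genes measured the median was 0.19. PSMD3, a lid subunit, had a signal of 615 with CTNNB1 siRNA and 362 with control siRNA and was 1.7-fold higher. PSMD12, another scaffold subunit of the lid, read 2652 with CTNNB1 siRNA and 1709.6 with control siRNA and was 1.55-fold higher, but its second probe set (202353_s_at) read 856 with CTNNB1 siRNA and 899 with control siRNA. PSMD11, a lid subunit known to stabilise the contact between core and regulatory particle, read 3023 with CTNNB1 siRNA and 2081 with control siRNA, a log2 ratio of 0.54, while its dimmer probe set (208776_at) read 241 with CTNNB1 siRNA and 244 with control siRNA. For PSMD11 and PSMD12 the difference therefore rests on the brightest probe set alone. The lid was not uniform. PSMD6 read 3119 with CTNNB1 siRNA and 2730.2 with control siRNA and PSMD8 3175 with CTNNB1 siRNA and 3010.3 with control siRNA. Their log2 ratios were 0.19 and 0.08. PSMD14, the deubiquitinase of the lid that removes ubiquitin chains before degradation, read 3964 with CTNNB1 siRNA and 4345 with control siRNA. Its log2 ratio of -0.13 was the lowest of the regulatory particle and lay 1.68 SD below the median of its decile, and it ran from -0.42 after quantile normalization to 0.00 after scaling to a common median.

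In their brightest probe sets the base subunits outside the ATPase ring were near the general shift. The scaffold PSMD1 read 3337 with CTNNB1 siRNA and 3071 with control siRNA, the scaffold PSMD2, a docking site for shuttle factors, 3232 with CTNNB1 siRNA and 2525.5 with control siRNA, and the ubiquitin receptor PSMD4 3930.5 with CTNNB1 siRNA and 3656 with control siRNA. Their log2 ratios were 0.12, 0.36 and 0.10, beside the SD of 0.29 over bright probe sets, which that of PSMD2 exceeded. The other PSMD1 probe set (201198_s_at) lay at 0.42, and the dimmer ones of PSMD4 ran from 0.05 to 0.54 (210459_at). PSMA6, PSMB11, PSMC5, PSMD7, PSMD13 and PSME2 had no probe set under a single symbol and are not analysed here, and 5 probe sets that pair a proteasome symbol with another gene were left out.

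**Figure D3:**
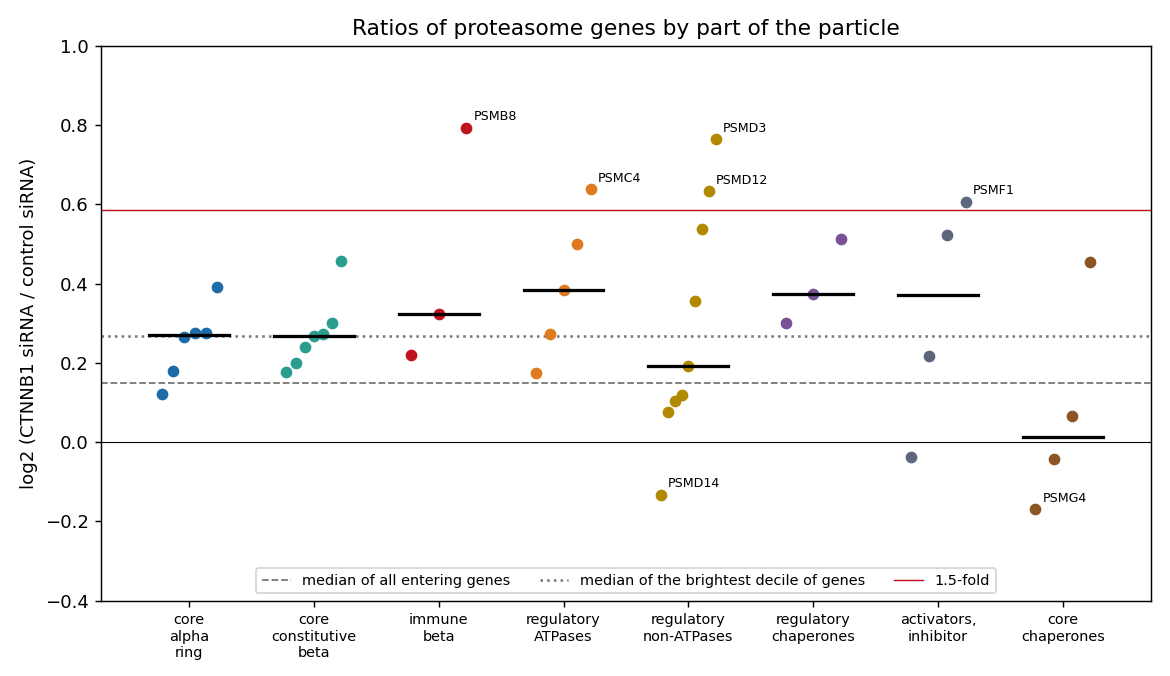
Log2 ratio of CTNNB1 siRNA over control siRNA for each of the 41 proteasome genes by part of the particle, with the median of each part as a black bar. The 5 genes above the red line at 1.5-fold are labelled, as are PSMD14 and PSMG4 at the low end; the dashed and dotted lines mark the medians of all genes (0.15) and of the brightest decile (0.27).

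Assembly factors of the 2 particles had different medians among the genes of the rule. The 3 chaperones of the regulatory particle's base under the rule had a median log2 ratio of 0.37. PSMD10, also called gankyrin, read 3548.5 with CTNNB1 siRNA and 2486 with control siRNA, PSMD5 read 2151 with CTNNB1 siRNA and 1661 with control siRNA, and PSMD9 read 4374 with CTNNB1 siRNA and 3554 with control siRNA. The 4 chaperones of the core had a median of 0.01, the lowest of the 8 parts. PSMG1 and PSMG2 act as a pair in building the alpha ring, yet PSMG1 read 4891.5 with CTNNB1 siRNA and 3568 with control siRNA and PSMG2 2284 with CTNNB1 siRNA and 2351.5 with control siRNA, log2 ratios of 0.46 and -0.04. The other pair read 1191 with CTNNB1 siRNA and 1137 with control siRNA for PSMG3 and 1745 with CTNNB1 siRNA and 1961 with control siRNA for PSMG4, whose -0.17 was the lowest ratio of the 41. A dim PSMG4 probe set (242055_at) read 34.9 with CTNNB1 siRNA and 71.2 with control siRNA, more than 2-fold lower. The assembly factors PAAF1 and POMP lie outside the rule and in neither median. PAAF1, of the regulatory particle, read 174.4 with CTNNB1 siRNA and 218.6 with control siRNA, a log2 ratio of -0.33. POMP, of the core, had a log2 ratio of 0.19. None of the 7 chaperones under the rule passed 1.5-fold as represented, beside 11.2% of all genes higher and 7.61% lower. No test of the difference between the chaperone groups was possible.

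Of the activators and the inhibitor, 1 of 4 measured genes was at least 1.5-fold higher and 0 were lower, beside 11.2% and 7.61% of all genes. PSME1, a subunit of the interferon-induced activator, read 2551 with CTNNB1 siRNA and 2193 with control siRNA. PSME3, the subunit of the nuclear activator, read 1914 with CTNNB1 siRNA and 1332 with control siRNA, and its 4 probe sets all lay above 0, from 0.23 to 0.55. PSME4, a large activator linked to histone turnover, read 1337.5 with CTNNB1 siRNA and 1372 with control siRNA, with 3 probe sets between -0.09 and 0.01. PSMF1, a regulator that inhibits the core in vitro, read 891 with CTNNB1 siRNA and 585 with control siRNA in its brightest probe set, 1.52-fold higher. Its 3 other probe sets went the other way. 201053_s_at read 611.5 with CTNNB1 siRNA and 671 with control siRNA, 236012_at 86.8 with CTNNB1 siRNA and 116 with control siRNA and 235993_at 72 with CTNNB1 siRNA and 95.4 with control siRNA. The median over the PSMF1 probe sets was -0.27, so its sign depends on the probe set chosen.

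**Figure D4:**
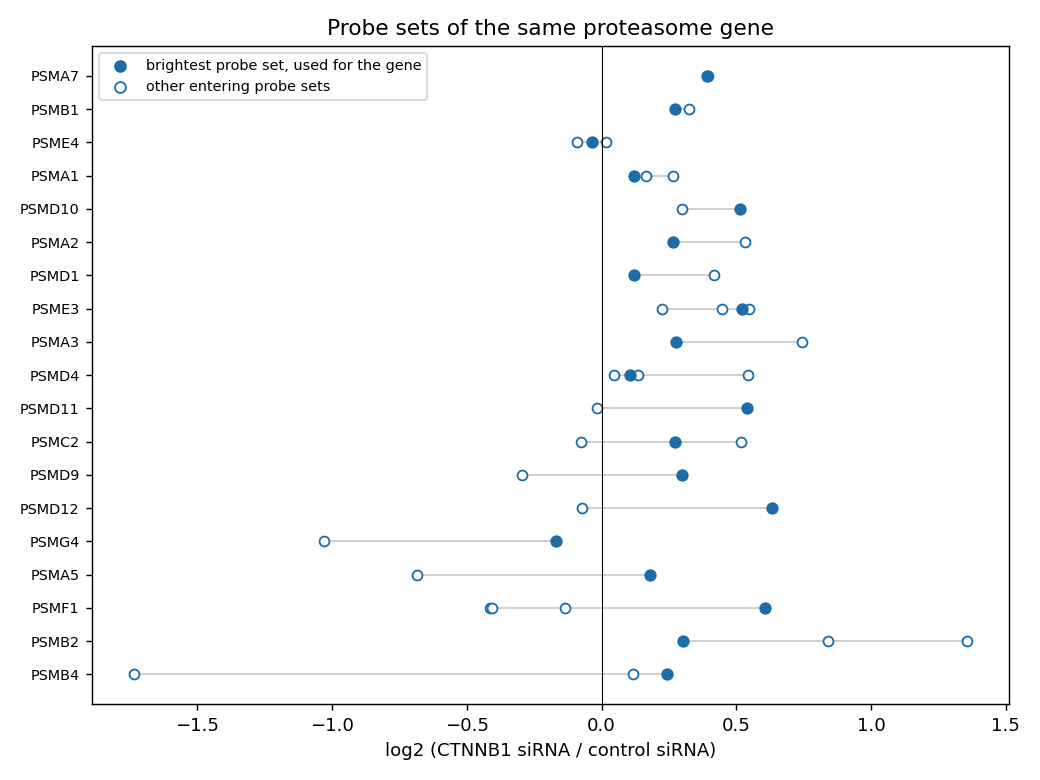
Log2 ratio of CTNNB1 siRNA over control siRNA (horizontal axis) for every usable probe set of the 19 proteasome genes with 2 or more, ordered by their range; filled points are the brightest probe set. Probe sets of PSMA7 and PSMB1 nearly coincide, while those of PSMF1, PSMB2 and PSMB4 span more than 1 log2 unit.

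Disagreement between probe sets was as large as any difference between the parts. Of the 19 genes with several usable probe sets, 8 had ratios of both signs and 3 spanned more than 1 log2 unit. Among all 71 usable proteasome probe sets, 1 was at least 2-fold higher and 2 at least 2-fold lower, beside 3.42% and 2.21% of all usable probe sets with 1 symbol. At 1.5-fold the counts were 8 higher and 3 lower, beside 14.4% and 7.52%. The higher one at 2-fold was a dimmer probe set of PSMB2 (201404_x_at, 545 with CTNNB1 siRNA and 213 with control siRNA), where the bright one gave 0.30 on the log2 scale. Another PSMB2 probe set (238425_at) read 300.1 with CTNNB1 siRNA and 168 with control siRNA. The lower ones were the dim PSMG4 probe set above and 228204_at of PSMB4, which read 26.1 with CTNNB1 siRNA and 86.9 with control siRNA, although the 2 bright PSMB4 probe sets lay at 0.12 and 0.24. PSMA5 had a dimmer probe set (230300_at) of 110.0 with CTNNB1 siRNA and 177 with control siRNA, and PSMD9 one (209334_s_at) of 282 with CTNNB1 siRNA and 346 with control siRNA, both opposite in sign to the bright ones. Probe sets lay close together for PSMA7, with 0.39 and 0.40, and for PSMB1, with 0.27 and 0.32.

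Of the symbols that share only the prefix, PSMC3IP, a cofactor of homologous recombination, read 397 with CTNNB1 siRNA and 386.5 with control siRNA in its brightest probe set, and PSME3IP1, which encodes a binding partner of the PSME3 activator, read 967 with CTNNB1 siRNA and 724 with control siRNA. The other 3 PSME3IP1 probe sets had log2 ratios from -0.18 to 0.07. Of the antisense transcripts, PSMB8-AS1 read 70 with CTNNB1 siRNA and 87.5 with control siRNA in its usable probe set and 26.3 with CTNNB1 siRNA and 64.7 with control siRNA in a probe set under the filter (1555852_at), lower in both where PSMB8 was higher. The PSMA3-AS1 probe sets had unlike log2 ratios, -0.18, 0.19 and, in the dimmest (239432_at, 83.9 with CTNNB1 siRNA and 31.3 with control siRNA), 1.42. PSMD6-AS2 read 183 with CTNNB1 siRNA and 138 with control siRNA and PSMG3-AS1 42.4 with CTNNB1 siRNA and 60.9 with control siRNA. The divergent transcripts PSMD7-DT and PSMD14-DT stayed under the filter.

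Genes that work with the proteasome had a median log2 ratio of 0.16 over the 22 of 27 measured, beside 0.27 for the proteasome genes and 0.15 for all genes. After the lowess correction their median was -0.10. With the median over probe sets it was 0.27, the same as the 0.27 of the proteasome genes under that setting. Of the 22 partner genes as represented, 1 passed 1.5-fold higher and 0 lower, beside 11.2% and 7.61% of all genes. It was UBA6, an alternative ubiquitin-activating enzyme, with a signal of 1168 with CTNNB1 siRNA and 719 with control siRNA (1.62-fold). Its 3 next brightest probe sets lay at 0.48 to 0.84 and its 2 dimmest at -0.04 and -0.35. Dimmer usable probe sets of other partner genes also passed 1.5-fold higher, and none passed it lower. They lay at 0.81 (222989_s_at) and 0.64 (222991_s_at) for UBQLN1 and 0.76 for UBQLN4 (222252_x_at). Those of UBE3C (1554794_a_at), UCHL5 (220083_x_at) and ZFAND5 (229368_s_at) lay at 0.68, 0.64 and 0.62. UBA1, the main activating enzyme, read 4151.5 with CTNNB1 siRNA and 3244 with control siRNA. The proteasome subunit ADRM1, a ubiquitin receptor, read 1375 with CTNNB1 siRNA and 979 with control siRNA, the small subunit SEM1 4747 with CTNNB1 siRNA and 4259.7 with control siRNA, and POMP, the maturation protein of the core, 6226 with CTNNB1 siRNA and 5475 with control siRNA. The enzymes bound to the particle had a median of 0.15 over 5 genes, from -0.15 for UBE3C to 0.40 for the deubiquitinase USP14. USP14 read 2631 with CTNNB1 siRNA and 1995.5 with control siRNA. Its dimmer probe sets lay at -0.24 (226567_at) and 0.29 (201671_x_at). The shuttle factors had a median of 0.10 over 5, from -0.14 for UBQLN4 to 0.27 for RAD23B. RAD23B read 4446.5 with CTNNB1 siRNA and 3686.5 with control siRNA.

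The transcription factors of the proteasome genes are NFE2L1, which is released from the endoplasmic reticulum when proteasome activity is low, and its relative NFE2L2. NFE2L1 read 801 with CTNNB1 siRNA and 736 with control siRNA and NFE2L2 1619.5 with CTNNB1 siRNA and 1919.7 with control siRNA, log2 ratios of 0.12 and -0.25. The enzyme genes that NFE2L1 needs for activation read 460.3 with CTNNB1 siRNA and 308 with control siRNA for NGLY1, a deglycosylase, and 2517 with CTNNB1 siRNA and 2338 with control siRNA for VCP, the extraction ATPase. AKIRIN2, which carries proteasomes into the nucleus, read 1358 with CTNNB1 siRNA and 939.6 with control siRNA. The log2 ratios were 0.58 for NGLY1, 0.11 for VCP and 0.53 for AKIRIN2. All 5 stayed under 1.5-fold, NGLY1 only just, at 1.495-fold. The other NFE2L1 probe sets lay on both sides of 0, at -0.24 (214179_s_at) and 0.21 (200758_s_at). These are transcript levels, and NFE2L1 and NFE2L2 are known to be controlled largely after translation.

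**Figure D5:**
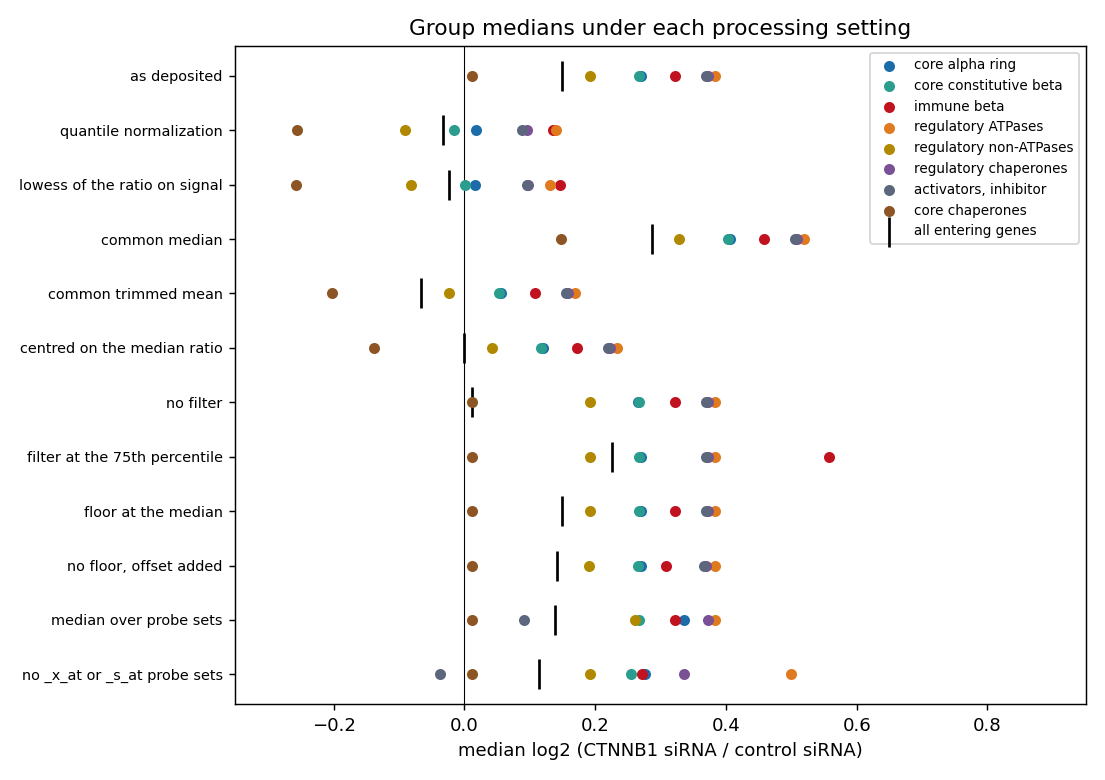
Median log2 ratio of CTNNB1 siRNA over control siRNA (horizontal axis) of each of the 8 parts under the deposited scaling and 11 alternatives (rows), with the median of all genes as a black tick. The core chaperones have the lowest median of the 8 parts as deposited and under each scaling, and the ticks move from -0.07 to 0.29 with the scaling.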

How the data were processed

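The data are 1 linear signal intensity per probe set and array, made by the authors with MAS5 per the submitters' processing notes; its version, target intensity and detection calls, and any scaling between arrays, are not stated in these sources. The 2 columns did not share 1 scale (medians 46.7 for CTNNB1 siRNA and 51.3 for control siRNA, 2% trimmed means 271 and 233). Names came from GEO's annotation of the platform, with 1 gene symbol for 41097 of 54675, several for 1801 and none for 11777, and symbols were updated to RefSeq names through the Entrez number for 41043. The deposited intensities were turned into log2 ratios, CTNNB1 siRNA over control siRNA, without normalization and after values under 13.8 (the 25th percentile) were set to it. A probe set entered at a mean signal of at least 49.1, and a gene was its brightest entering probe set. With 1 array per group no test between conditions was made, and the number of arrays limits the precision. Genes were called by size alone, at 1.5-fold and 2-fold. Members, lists, motifs and alternatives were chosen with earlier results of these data known. Every measured member was named, and partner genes past 1.5-fold with NFE2L1, NFE2L2, NLRC5 and IRF1; 1 further gene of this rule is not reported here. Other partner genes in the text were chosen for their role after their values were seen, and the low probe sets and the split of the lid were picked out likewise. Calculations used Python 3.11.15, pandas 2.3.3 and statsmodels 0.14.6, and were tested on simulated arrays.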

Additional observations from a re-analysis of the deposited data

How the results depend on the processing

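No paired analysis was possible because each group was 1 array. Over 11 alternatives the median log2 ratio of the proteasome genes kept its sign, from 0.02 after lowess to 0.41 with a common median, and moved with that of all genes (-0.02 and 0.29). The count at least 1.5-fold higher, 5 as deposited, was 1 after quantile normalization, 1 after lowess, 11 with a common median, 0 with a common trimmed mean, 2 after centring and 3 of 31 genes without _x_at and _s_at probe sets. The count at least 1.5-fold lower was 1 with the median over probe sets, and 1 without _x_at and _s_at probe sets, where 1 was also 2-fold lower (PSMG4, -1.03). PSMB8 passed 1.5-fold in 9 of 10 alternatives (0.58 with a common trimmed mean) and PSMD3 in 8 of 11. Each has 1 usable probe set, with signals above the filters and floors. The filter settings, the floor at the median and the median over probe sets therefore could not change these 2 ratios. Medians that turned negative were, after quantile normalization, the constitutive beta subunits (-0.016), the non-ATPases (-0.091), the core chaperones (-0.26) and the partner genes (-0.12). After lowess they were the non-ATPases (-0.081), core chaperones (-0.26) and partner genes (-0.10). With a common trimmed mean they were the non-ATPases (-0.023), core chaperones (-0.20) and partner genes (-0.052). After centring it was the core chaperones (-0.14), and without _x_at and _s_at probe sets the activators and inhibitor (-0.037). PSMB2 reached 0.84 with the median over probe sets and without _x_at and _s_at probe sets. PSMF1 turned to -0.27 with the median over probe sets and to -0.41 without _x_at and _s_at probe sets, where the choice of probe set is the cause. The 0.84 of PSMB2 is the value of its probe set 238425_at, and the -1.03 of PSMG4 is that of 242055_at. Without _x_at and _s_at probe sets the median of the activators and inhibitor, -0.037, is the value of PSME4. For the remaining changes the cause was not tested. The floor, an added offset, the signal filter at the 75th percentile and no filter changed no count or sign of these results.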
